A study of Mus musculus with 8 samples.

Results

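The Gata3 locus was taken as the window from 9000000 to 10000000 of mouse chromosome 2 (build mm10). It held 63 of the 93708 Bcl11b ChIP intervals, chosen by the position of their midpoints, with earlier results of these data known. Chromatin was precipitated from thymocytes with an antibody against Bcl11b in 3 libraries of genotype Bcl11b+/N440K, in which 1 of the Bcl11b alleles carries an exchanged amino acid, and in 3 libraries of genotype Bcl11b+/+. The comparison asks where Bcl11b binding differs between these genotypes. The sources used here give no strain, age or sex and do not say that replicates came from separate animals. Each p-value therefore reflects the spread among these libraries alone, which may be technical. The sources also do not say whether the antibody tells the mutant from the normal protein, and the 2 Bcl11b+/+ input libraries were not analysed here, so no level below is set against input. Total reads in all intervals were 1812952 to 2123877 per Bcl11b+/N440K library and 1787899 to 2661343 per Bcl11b+/+ library. ChIP counts are not expression and do not check the cell type. Intervals near 7 of 7 thymocyte markers numbered 59, against 25 near 3 of 4 B cell, 23 near 2 of 3 myeloid, 8 near 3 of 3 erythroid and 3 near 2 of 3 thymic epithelial markers. The lists differ in length and single genes weigh heavily, with 17 intervals at Themis, 19 at Ebf1 (B cell) and 22 at Itgam (myeloid).

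GATA3 is a zinc finger transcription factor that T cell precursors need for commitment, for progress through the early thymic stages and for the CD4 lineage, and that later directs T helper 2 cells. Its dose matters in the thymus, where both too little and too much GATA3 disturb T cell development. The gene is flanked on its 3' side by a long stretch without protein-coding genes, in which enhancers lie. The best known of these, about 280 kb from the gene, drives Gata3 in T and natural killer cells. Bcl11b is itself a zinc finger factor that starts to be made at T lineage commitment, downstream of GATA3, TCF1 and Notch.

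Gata3 spans 9857078 to 9887953 on the minus strand in RefSeq, so its 3' side lies at lower coordinates. Distances below run from the start site at 9878600 that the RefSeq promoter table gives. The annotated gene reaches 9.4 kb further upstream. The promoter sequence, from 250 bases before to 50 after that start, is shown because an interval lies across it. It was read from RefSeq (GRCm38.p6, whose positions are those of mm10) at chr2:9878551-9878850 on the minus strand.

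Gata3 promoter, 5′ to 3′: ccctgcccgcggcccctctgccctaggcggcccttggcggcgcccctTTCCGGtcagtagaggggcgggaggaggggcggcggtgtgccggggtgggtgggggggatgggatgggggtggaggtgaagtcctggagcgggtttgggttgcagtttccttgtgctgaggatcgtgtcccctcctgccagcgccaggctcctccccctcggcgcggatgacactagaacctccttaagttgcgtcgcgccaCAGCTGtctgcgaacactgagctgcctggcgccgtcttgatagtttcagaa

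Capitals mark the matches to 6 short words searched on both strands, which do not overlap each other. The ETS-type word TTCCGG was found once, beginning 203 bases before the start, and the E protein word CAGCTG once, beginning 1 base before it. Of all 32851 RefSeq promoters of this length, 14.9% held the first and 16.3% the second. The BCL11-type word TGACCA, the RUNX word TGTGGT, the GATA word AGATAA and the TCF word ATCAAAG were not in this stretch, and 13.6%, 16.8%, 11.2% and 3.73% of all promoters held them. The interval from 9878425 to 9878625 covers 75 bases of the printed sequence, at its 3' end. The sequence was 67.3% G and C. The words were chosen partly with the sequence in view. A match is one of letters, not a measured site, and no match says only that these letters are not in this window.

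The members spread unevenly over the window. Inside the gene body lay 10 intervals, 46 lay on its 3' side and 7 on its 5' side, of which 5 were inside Taf3, the gene of a subunit of the general transcription factor TFIID. The largest gap between neighbouring members was 98.8 kb, and 21 gaps were under 1 kb, so DNA fragments can reach into more than 1 member. All intervals have the same length, so levels need no scaling by length. Levels of different intervals were not corrected for base composition or input. They are given as CPM, reads scaled to a common number of reads in tested intervals by TMM. The lowest member averaged 1.99 CPM and the highest 82.0 CPM in Bcl11b+/+ libraries, with a median of 5.96 CPM against 7.79 CPM over all intervals. At the window's edges, the first member inside, at 9116793, had 8.83 ± 3.10 CPM in Bcl11b+/N440K and 12.1 ± 3.24 CPM in Bcl11b+/+ libraries, and the nearest interval outside, at 8965351, had 2.61 ± 1.58 CPM in Bcl11b+/N440K and 1.94 ± 1.55 CPM in Bcl11b+/+ libraries (SD, n = 3 each). At the other edge the last member inside, at 9997675, had 5.39 ± 1.58 CPM in Bcl11b+/N440K and 8.52 ± 1.44 CPM in Bcl11b+/+ libraries. The nearest beyond it, at 10008148, had 2.54 ± 2.61 CPM in Bcl11b+/N440K and 5.08 ± 1.95 CPM in Bcl11b+/+ libraries (SD, n = 3 each).

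The strongest Bcl11b signal of the window lay far from the gene, in a pair of intervals 283.0 and 284.4 kb 3' of the start site, outside any annotated gene. Both fall in the zone, 240 to 320 kb beyond the gene body, that was drawn around the known distal T cell enhancer. Measured from the gene body, the pair lies 261.5 and 262.8 kb away. Members 279.0 to 279.7 kb from the gene body were weak, averaging 2.93 to 5.955 CPM in Bcl11b+/+ libraries. The labels and files do not give the known enhancer's own borders, so whether the pair lies in it was not tested. The pair's nearer interval runs from 9595455 to 9595655. It had 82.0, 78.1 and 82.8 CPM in the Bcl11b+/N440K libraries, against 82.4, 70.4 and 93.1 CPM in the Bcl11b+/+ libraries. The genotypes overlapped fully here, and the log2 fold change was -0.015 ± 0.117 (SE, edgeR adjusted p = 0.975). It was positive without a low-count filter, without Bcl11b+/+ replicate 3 or without Bcl11b+/N440K replicate 2. The other, from 9594135 to 9594335, had 69.8, 78.1 and 69.2 CPM in the Bcl11b+/N440K libraries and 77.5, 70.0 and 81.5 CPM in the Bcl11b+/+ libraries. Its log2 fold change was -0.08 ± 0.12 (SE, edgeR adjusted p = 0.850), again with overlapping libraries. By their Bcl11b+/+ level the pair ranked 159 and 229 among all 93708 intervals, within the top 0.170% and 0.244%. Together they carried 21.7 ± 1.12% of the window's summed signal in Bcl11b+/N440K and 19.9 ± 0.496% in Bcl11b+/+ libraries (SD, n = 3 each).

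**Figure D1:**
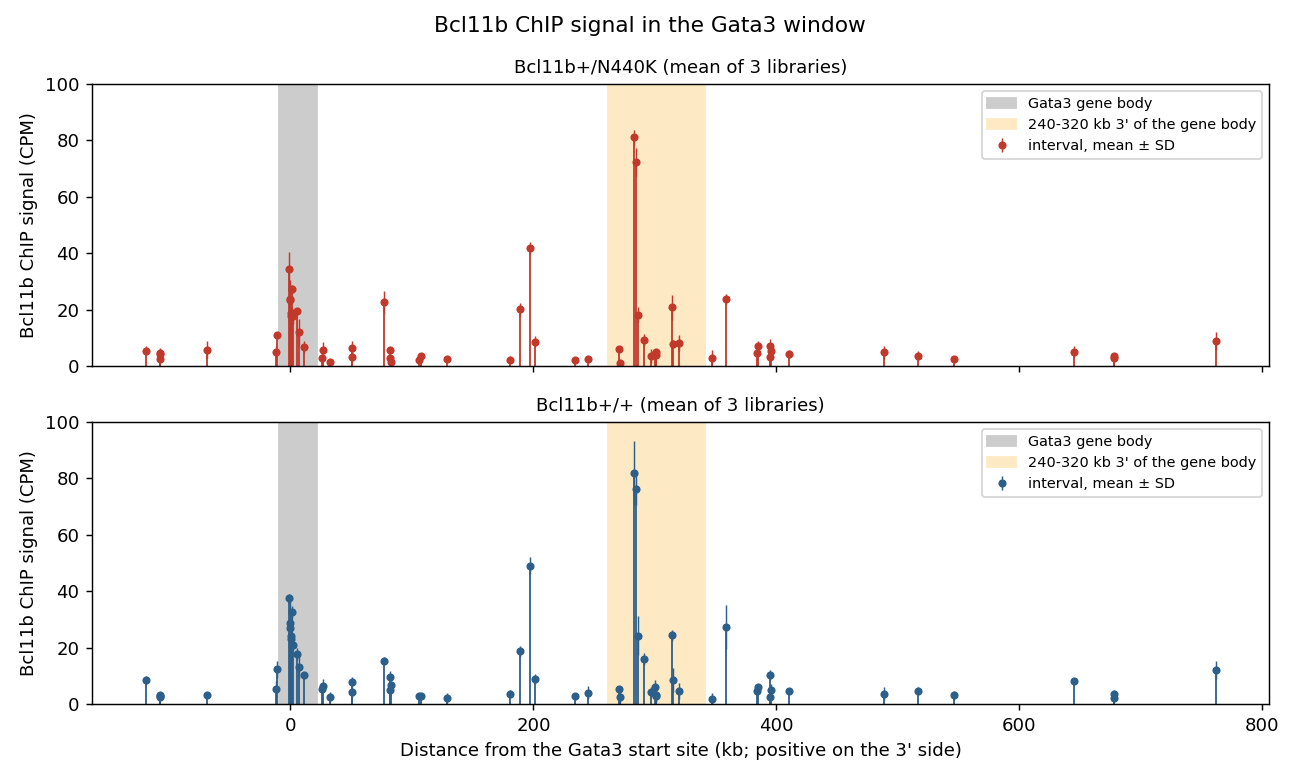
Bcl11b ChIP signal (CPM, mean ± SD of 3 libraries) at the 63 intervals of the Gata3 window, by distance from the Gata3 start site in kb, for Bcl11b+/N440K (upper) and Bcl11b+/+ (lower). Grey marks the gene body and yellow the zone 240 to 320 kb on its 3' side, where the strongest pair reaches 80.9 and 72.4 CPM in Bcl11b+/N440K and 82.0 and 76.3 CPM in Bcl11b+/+ libraries.

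Next in strength was an interval 196.8 kb 3' of the start site (9681684 to 9681884), between genes. It had 43.7, 39.7 and 42.2 CPM in the Bcl11b+/N440K libraries, against 50.8, 45.7 and 50.6 CPM in the Bcl11b+/+ libraries. All Bcl11b+/N440K libraries were below all Bcl11b+/+ libraries, but at -0.22 ± 0.14 on the log2 scale (SE) the difference did not pass (edgeR adjusted p = 0.557). Two-sided tests of this kind across all intervals are used throughout.

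Around the start site of Gata3 itself lay 7 intervals within 3.17 kb, each at a moderate level. They averaged 17.6 to 34.3 CPM in Bcl11b+/N440K and 21.1 to 37.5 CPM in Bcl11b+/+ libraries. The strongest of them, 1.1 kb upstream (9879600 to 9879800), had 28.2, 40.3 and 34.4 CPM in Bcl11b+/N440K and 35.9, 37.5 and 39.1 CPM in Bcl11b+/+ libraries, with Bcl11b+/N440K replicate 2 the highest of all 6. The interval across the start site, 9878425 to 9878625, had 18.8, 17.1 and 17.7 CPM in Bcl11b+/N440K, against 20.4, 21.4 and 27.9 CPM in Bcl11b+/+ libraries, with no overlap. Its neighbour 19 bp away (9878205 to 9878405) had 17.2, 17.1 and 21.9 CPM in Bcl11b+/N440K and 26.6, 21.8 and 23.6 CPM in Bcl11b+/+ libraries. These 2 intervals may share fragments and are not independent.

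Of the other intervals near the start, the one 1.3 kb downstream (9877242 to 9877442) had 25.5, 27.5 and 28.6 CPM in Bcl11b+/N440K and 31.0, 31.3 and 35.2 CPM in Bcl11b+/+ libraries. The one 1.9 kb downstream (9876634 to 9876834) had 19.4, 18.9 and 14.6 CPM in Bcl11b+/N440K and 19.8, 20.2 and 23.2 CPM in Bcl11b+/+ libraries. At both, every Bcl11b+/N440K library was below every Bcl11b+/+ library. At 0.7 kb upstream (9879246 to 9879446) the libraries scattered, with 24.9, 15.2 and 29.7 CPM in Bcl11b+/N440K and 38.4, 26.4 and 21.9 CPM in Bcl11b+/+. At 0.4 kb upstream (9878892 to 9879092) there were 23.3, 25.0 and 22.9 CPM in Bcl11b+/N440K and 24.2, 28.8 and 27.9 CPM in Bcl11b+/+ libraries. None of the 7 passed, where 1.14% of all tested intervals did. The log2 fold changes of the 7 ran from -0.39 to -0.14, all negative, and the smallest edgeR adjusted p was 0.442. Summed over the 7, signal was 157, 161 and 170 CPM in Bcl11b+/N440K, against 196, 187 and 199 CPM in Bcl11b+/+ libraries. The sums did not overlap, at 83.8% of the Bcl11b+/+ mean (two-sided exact permutation p = 0.1, and 3 against 3 libraries cannot go lower). This grouping around the start was made after the values had been seen.

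Deeper in the gene lay 3 further intervals. At 5.6 kb downstream of the start (9872852 to 9873052) there were 19.9, 20.1 and 18.2 CPM in Bcl11b+/N440K and 19.8, 15.6 and 17.6 CPM in Bcl11b+/+ libraries, and at 7.2 kb (9871272 to 9871472) 17.2, 7.93 and 10.9 CPM in Bcl11b+/N440K and 8.67, 14.8 and 15.9 CPM in Bcl11b+/+ libraries. Both overlapped between genotypes. At 11010 bp (9867490 to 9867690) there were 8.31, 4.27 and 7.81 CPM in Bcl11b+/N440K and 10.5, 10.7 and 9.44 CPM in Bcl11b+/+ libraries, without overlap, and edgeR gave -0.565 ± 0.324 on the log2 scale (SE, adjusted p = 0.481). Upstream of the annotated gene, an interval 10.9 kb from the start, with its midpoint in the long noncoding RNA gene 9230102O04Rik, averaged 11.04 ± 1.01 CPM in Bcl11b+/N440K and 12.3 ± 3.16 CPM in Bcl11b+/+ libraries (SD, n = 3 each). A neighbour at 11.5 kb averaged 4.91 ± 2.08 CPM in Bcl11b+/N440K and 5.41 ± 2.80 CPM in Bcl11b+/+ libraries. An interval 25.9 kb downstream and past the gene's 3' end had 7, 3 and 5 reads in Bcl11b+/N440K and 11, 10 and 13 reads in Bcl11b+/+ libraries and was too low to be tested. Exons and introns could not be told apart with the annotation used.

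Bcl11b ChIP signal fell at 1 member, 82.6 kb 3' of the start site and 61.1 kb beyond the gene body (9795850 to 9796050), between genes. It had 1.11, 1.83 and 1.04 CPM in the Bcl11b+/N440K libraries, against 6.82, 5.35 and 8.15 CPM in the Bcl11b+/+ libraries, or 2, 3 and 2 reads in Bcl11b+/N440K and 11, 13 and 19 reads in Bcl11b+/+ libraries. No library of either genotype entered the other genotype's range, and the change was 4.98-fold (log2 fold change -2.32 ± 0.55, SE, edgeR adjusted p = 0.0165). Its Bcl11b+/+ level, 6.77 ± 1.40 CPM (SD, n = 3), ranked 29 in the window. The call rests on few reads. It was lost with DESeq2 (adjusted p = 0.346), limma voom (0.179) and loess offsets (0.0671), and when any of 4 libraries was left out, Bcl11b+/N440K replicates 1 or 3 or Bcl11b+/+ replicates 1 or 3. Every setting kept it negative, with log2 fold changes from -2.59 to -1.96.

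That call was 1 of 36 tested members. Over all 63098 tested intervals 1.14% were called, 0.681% lower and 0.46% higher. No rate for the locus can be read from a single call. A low-count filter removed the other 27 members, which had 0 to 15 reads per library and averaged 0.938 to 5.84 CPM in Bcl11b+/N440K and 1.99 to 5.50 CPM in Bcl11b+/+ libraries. At an unadjusted p under 0.05 there were 5 members, 3 lower and 2 higher, where 12.7% of all tested intervals reached it, 6.52% lower and 6.16% higher. DESeq2 and limma voom called 0 members, against 0.0951% and 0.504% of all tested intervals.

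The interval called lower had 2 neighbours within 1 kb. The one 105 bp away (9796156 to 9796356) had 6.09, 4.88 and 6.25 CPM in Bcl11b+/N440K and 7.43, 9.88 and 11.6 CPM in Bcl11b+/+ libraries, with no overlap and a log2 difference of -0.76 ± 0.34 (SE, edgeR adjusted p = 0.317). The next was too low to be tested, at 3.04 ± 1.12 CPM in Bcl11b+/N440K and 5.21 ± 2.51 CPM in Bcl11b+/+ libraries (SD, n = 3 each). Its libraries overlapped, with 2.77, 4.27 and 2.08 CPM in Bcl11b+/N440K and 8.055, 3.29 and 4.29 CPM in Bcl11b+/+. So only the called interval and its nearest neighbour were lower in every Bcl11b+/N440K library, over reads that they may share. Toward the gene, 4611 bp past the untested neighbour, the order turned. The interval 76.9 kb from the start (9801633 to 9801833) had 18.3, 26.2 and 23.4 CPM in Bcl11b+/N440K, against 14.9, 14.0 and 16.7 CPM in Bcl11b+/+ libraries. It was the sole tested member with every Bcl11b+/N440K library above every Bcl11b+/+ library, and did not pass (log2 fold change 0.57 ± 0.22, SE, edgeR adjusted p = 0.223).

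**Figure D2:**
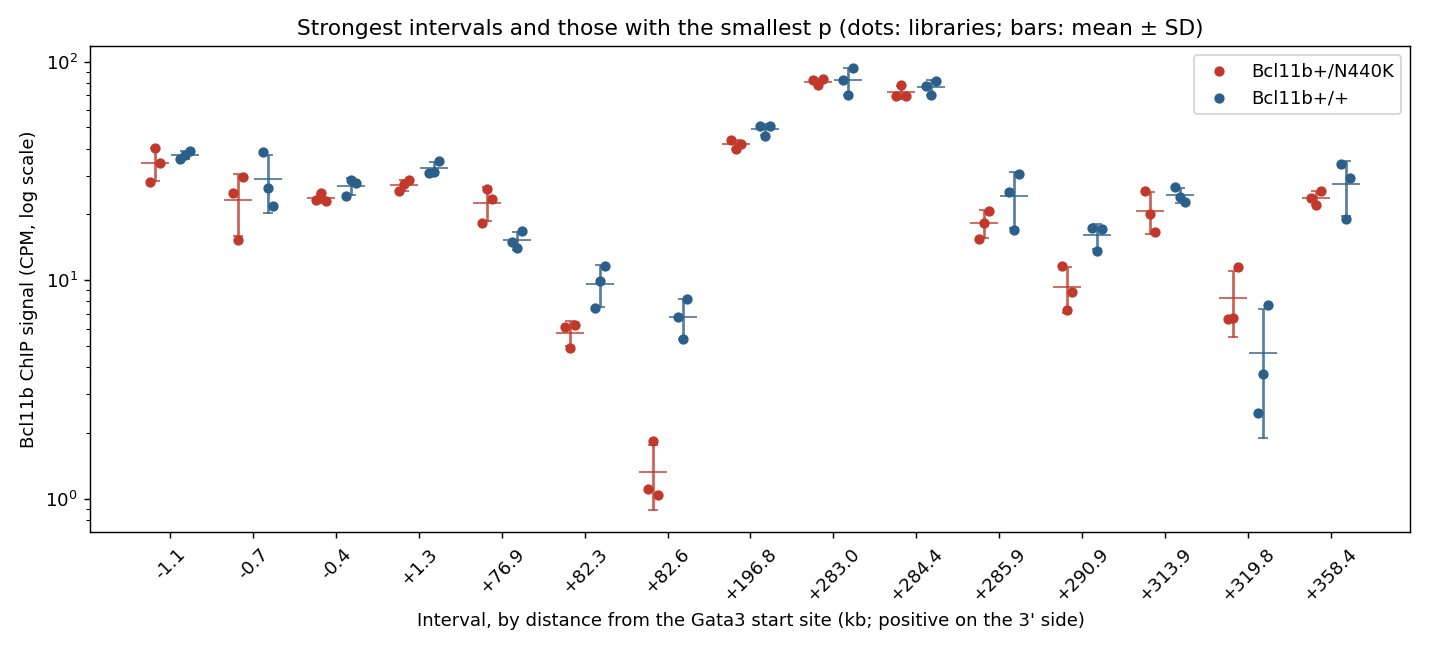
Bcl11b ChIP signal (CPM, log axis) of each library, with mean ± SD of 3, at the 10 strongest members and the 5 with the smallest p, by distance from the Gata3 start site in kb, Bcl11b+/N440K left of Bcl11b+/+. The pair at 283.0 and 284.4 kb overlaps between genotypes, and the interval at 82.6 kb stands at 1.04 to 1.83 CPM in Bcl11b+/N440K and 5.35 to 8.15 CPM in Bcl11b+/+ libraries.

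None of the 9 tested members among the 13 of the distal zone passed, where 1.14% of all tested intervals did. At that share, a lack of calls does not set the zone apart. The interval 290.9 kb from the start (9587569 to 9587769) had 11.6, 7.32 and 8.85 CPM in Bcl11b+/N440K, against 17.4, 13.6 and 17.2 CPM in Bcl11b+/+ libraries. The libraries did not overlap, and the log2 fold change of -0.77 ± 0.27 (SE) did not pass (edgeR adjusted p = 0.155). Between it and the pair, inside the long noncoding RNA gene Gm13218, an interval at 285.9 kb had 15.5, 18.3 and 20.8 CPM in Bcl11b+/N440K and 25.4, 16.9 and 30.5 CPM in Bcl11b+/+ libraries. Its log2 fold change was -0.40 ± 0.22 (SE, edgeR adjusted p = 0.451), and Bcl11b+/+ replicate 2 stood at the Bcl11b+/N440K level. At 313.9 kb there were 25.5, 20.1 and 16.7 CPM in Bcl11b+/N440K and 26.6, 23.9 and 22.8 CPM in Bcl11b+/+ libraries. The interval at 319.8 kb, with 6.64, 6.71 and 11.4 CPM in Bcl11b+/N440K and 2.48, 3.71 and 7.73 CPM in Bcl11b+/+ libraries, had the largest positive log2 fold change of the tested members, 0.783 ± 0.385 (SE), and did not pass (edgeR adjusted p = 0.382).

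Beyond the distal zone, the strongest interval lay 358.4 kb from the start (9520105 to 9520305), with 23.8, 21.96 and 25.5 CPM in Bcl11b+/N440K and 34.1, 18.9 and 29.2 CPM in Bcl11b+/+ libraries. The genotypes overlapped. In the zone beyond 5 kb on the 5' side, the strongest by Bcl11b+/+ level was in Taf3, 119.2 kb upstream, with 7.20, 4.27 and 4.68 CPM in Bcl11b+/N440K and 8.67, 6.999 and 9.87 CPM in Bcl11b+/+ libraries (log2 fold change -0.645 ± 0.361, SE, edgeR adjusted p = 0.465). Just outside the window, also in Taf3 (10015047 to 10015247), an interval with 12.7, 12.2 and 13.0 CPM in Bcl11b+/N440K and 23.5, 27.2 and 18.03 CPM in Bcl11b+/+ libraries was called lower, by 1.80-fold (edgeR adjusted p = 0.0449). It is no member and was noticed after its values were seen.

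Taken over the window, most tested members had a negative log2 fold change, 29 of 36, where 49.5% of all tested intervals did. Their median was -0.21, against 0.00 over all tested intervals. TMM scaling over the whole table sets that centre near 0.00, so a change common to all intervals would not be seen. The members' values are relative to it. At 9 of the 36 every Bcl11b+/N440K library was below every Bcl11b+/+ library, and at 1 above, where 8.95% and 8.34% of all tested intervals showed these patterns. The 12 members in the top quartile of all tested intervals by level had a median of -0.22, against 0.06 for that quartile as a whole. The 6 members of the third quartile had -0.032, against 0.006, the 7 of the second -0.391, against -0.036, and the 11 of the lowest -0.182, against -0.082. Members share libraries and neighbouring fragments, so these counts and medians describe the window and are no test.

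The members' median stood closer to 0 with Bcl11b+/+ replicate 2 than without it. Against the mean of the Bcl11b+/+ libraries the median log2 ratio of the tested members was -0.18, -0.31 and -0.18 in Bcl11b+/N440K replicates 1 to 3. Against the other pair of its own genotype, Bcl11b+/+ replicate 2 had -0.195, while replicates 1 and 3 had 0.01 and 0.19. These ratios have different bases, since the first 3 are set against a mean that includes replicate 2. Without replicate 2 the median log2 fold change of the members was -0.298. Summed over all 63 members, signal was 734, 683 and 710 CPM in Bcl11b+/N440K, against 816, 712 and 852 CPM in Bcl11b+/+ libraries, where Bcl11b+/+ replicate 2 lay inside the Bcl11b+/N440K range. The Bcl11b+/N440K mean was 89.3% of the Bcl11b+/+ mean (two-sided exact permutation p = 0.2, with 0.1 the smallest possible). The sums did not overlap (exact permutation p = 0.1) over the tested members alone, at a log2 ratio of -0.177, or over intervals within 250 kb of the gene body, at -0.238. That 250 kb range leaves out the strongest distal pair and takes in the Taf3 interval called lower outside the window.

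**Figure D3:**
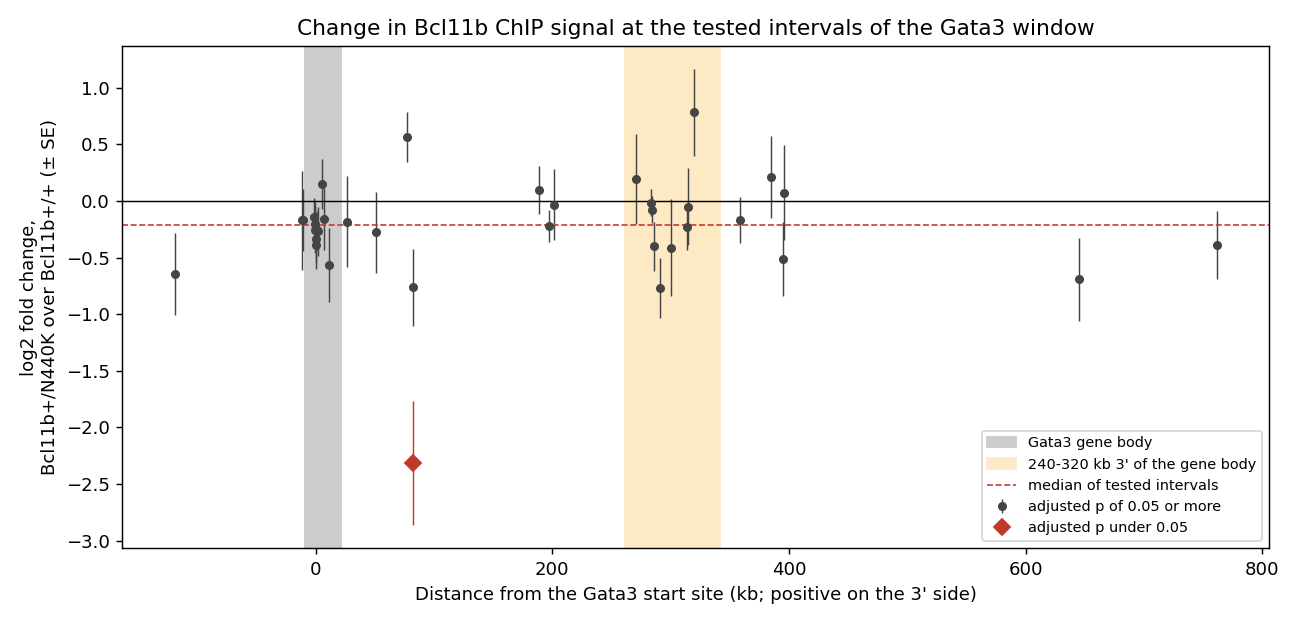
Log2 fold change of Bcl11b+/N440K over Bcl11b+/+ (± SE, edgeR) at the 36 tested members, by distance from the Gata3 start site in kb. The dashed line is their median of -0.21, 29 points lie below 0, and the diamond is the 1 interval with an adjusted p under 0.05.

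By zone, the gene body with 5 kb on each side separated the genotypes in every library. Its 13 members summed to 224, 213 and 222 CPM in Bcl11b+/N440K, against 258, 246 and 272 CPM in Bcl11b+/+ libraries, with no overlap. The Bcl11b+/N440K mean was 85.0% of the Bcl11b+/+ mean (exact permutation p = 0.1, adjusted over 6 zones 0.3). None of the 12 tested members of this zone was called by edgeR, where 1.14% of all tested intervals were. The zone 5 to 100 kb on the 3' side, which holds the interval called lower, also did not overlap, at 50.4, 59.2 and 54.7 CPM in Bcl11b+/N440K and 65.7, 59.3 and 67.0 CPM in Bcl11b+/+ libraries (exact permutation p = 0.1, adjusted 0.3). The sums overlapped (exact permutation p = 0.2) with loess offsets, at a log2 ratio of -0.093 against -0.225, without a low-count filter (-0.192) and over its tested intervals alone (-0.144). The gap between Bcl11b+/N440K replicate 2 and Bcl11b+/+ replicate 2 there was smaller than the SD of either genotype.

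The distal zone, 240 to 320 kb away, overlapped, with 245, 240 and 241 CPM in Bcl11b+/N440K and 275, 220 and 287 CPM in Bcl11b+/+ libraries, 92.8% of the Bcl11b+/+ mean (exact permutation p = 0.4). Bcl11b+/+ replicate 2 was the lowest of all 6 libraries there. The zone from 100 to 240 kb had 80.2 ± 8.28 CPM in Bcl11b+/N440K and 89.5 ± 8.81 CPM in Bcl11b+/+ libraries, and that beyond 320 kb 90.0 ± 8.70 CPM in Bcl11b+/N440K and 100.3 ± 12.1 CPM in Bcl11b+/+ libraries (SD, n = 3 each, exact permutation p = 0.3 for both). The 5' side had 22.6 ± 6.80 CPM in Bcl11b+/N440K and 20.7 ± 2.64 CPM in Bcl11b+/+ libraries (SD, n = 3 each, exact permutation p = 0.8). None of the 6 zones passed, and with 3 libraries a side none could.

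**Figure D4:**
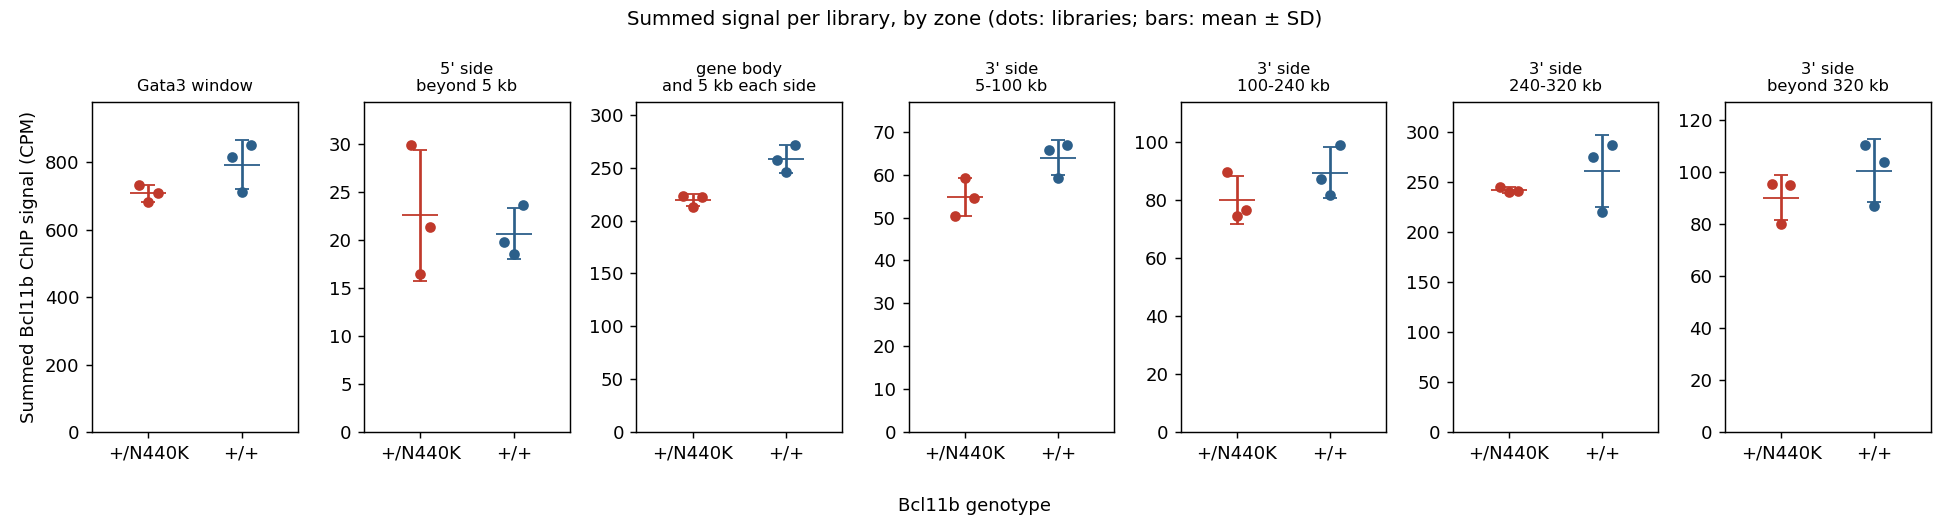
Summed Bcl11b ChIP signal (CPM) per library in the whole window and its 6 zones, Bcl11b+/N440K left of Bcl11b+/+, with mean ± SD of 3 libraries and axes from 0. The gene body zone separates the genotypes (213 to 224 CPM in Bcl11b+/N440K and 246 to 272 CPM in Bcl11b+/+), and the distal zone does not.

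As shares of the window's signal, which do not depend on library scaling, the gene body zone took 30.5%, 31.2% and 31.3% in the Bcl11b+/N440K libraries and 31.6%, 34.5% and 31.9% in the Bcl11b+/+ libraries (exact permutation p = 0.1, adjusted over 6 zones 0.6). The strongest distal pair took 20.7%, 22.9% and 21.4% in Bcl11b+/N440K, against 19.6%, 19.7% and 20.5% in Bcl11b+/+ libraries (exact permutation p = 0.1, with the pair singled out after its values were seen). Both separated the genotypes in full, by less than 2 percentage points on average. A share of one region moves when another region changes, so these values do not say which of them differed.

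Set among the genome's 1 Mb windows, the Gata3 window was above the middle but not at the top, among the intervals given. It ranked 596 of 2086 by number of intervals (the median window held 35) and 520 by summed Bcl11b+/+ signal, while its strongest interval ranked 125 among the strongest intervals of each window. The window of Tcf7, the gene of TCF1, which acts upstream of GATA3, held 103 intervals and 1848 CPM in Bcl11b+/+ libraries, with a median log2 fold change of 0.04 and 0 of 79 tested intervals called by edgeR. The window on chromosome 12 that holds Bcl11b had 134 intervals, a median of -0.62 and 14 of 85 called. Over all tested intervals edgeR called 1.14%. By median log2 fold change the Gata3 window was 52 from the lowest among 1090 windows with at least 20 tested intervals. No test of these differences between windows was made.

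Other genes of the GATA3 circuit were read from 3 lists, with intervals assigned to the gene body holding them or else the nearest within 100 kb. Genes of the lists without a call were named after their values were seen. Gata3 itself had 17 tested intervals in this sense, 15 with a negative log2 fold change and a median of -0.25. Regulators that act on Gata3 had 200 tested intervals at all 8 genes. Their median log2 fold change was -0.01. Of these 0 were called by edgeR, DESeq2 and limma voom, where 1.14%, 0.0951% and 0.504% of all tested intervals were called. At such low shares, 0 calls do not set these genes apart. Runx1, the gene of a RUNX transcription factor, and Ets1, an ETS family factor, had 42 and 39 tested intervals, with medians of -0.018 and -0.035. Tcf7 had 27 with a median of 0.02, and its strongest interval, at 178.6 CPM in Bcl11b+/+ libraries, was the highest of the list. Ikzf1, the Ikaros gene, had 26 with a median of -0.13.

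GATA family genes and their cofactors had 36 tested intervals at 5 of 9 genes, with a median log2 fold change of 0.045. All 3 tools called 0 of them, which at shares of 1.14% (edgeR), 0.0951% (DESeq2) and 0.504% (limma voom) over all tested intervals does not set them apart. Of the 36, 16 had a negative log2 fold change, and single genes weigh heavily. At Zfpm1, the gene of the GATA cofactor FOG1, 7 of 9 were negative, with a median of -0.21. At Ldb1, 6 of 9 were negative, with a median of -0.166. At Trps1, an atypical GATA-type repressor, 1 of 16 was negative, with a median of 0.32. Gata1 and Gata2, which act in blood progenitors, had 1 tested interval each, at -0.25 and -0.007. Gata6 had no interval assigned, and Gata4, Gata5 and Zfpm2 had none tested.

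Among genes that GATA3 acts on, 60 tested intervals at 7 of 9 genes held 9 calls, 8 lower and 1 higher, where 1.14% of all tested intervals were called. The list's median log2 fold change was -0.196. All 8 lower calls were at Bcl11b, where 27 of 29 tested intervals were negative with a median of -0.642. Without Bcl11b, 7 of the remaining 31 were negative, the median was 0.215 and 1 was called. The higher call was 0.2 kb from Zbtb7b, the gene of ThPOK that fixes the CD4 fate, at 17.7, 25.6 and 17.7 CPM in Bcl11b+/N440K, against 8.67, 9.88 and 10.3 CPM in Bcl11b+/+ libraries (2.07-fold, edgeR adjusted p = 0.0165). DESeq2 called 1 and limma voom 4 of the 60, where they called 0.0951% and 0.504% of all tested intervals. The genes of these calls are not given here. Spi1, the gene of PU.1 that GATA3 restrains in T cell precursors, had 8 tested intervals with 0 called by edgeR and a median of 0.17. The T helper 2 cytokine genes Il5 and Il13 had 5 and 1 tested intervals with 0 called by edgeR, and Il4 had none tested.

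By summed signal over the 6 libraries, the genes most like Gata3 among 1452 genes with at least 10 tested intervals were Ifitm10, a member of the interferon-induced transmembrane family (Pearson's r = 0.994), Igf1r, the receptor of insulin-like growth factor 1 (0.992), and Ttll11, a tubulin-modifying enzyme gene (0.987). The values share libraries and scaling, and the genotype split, so r describes this set of libraries alone. Gata3 summed to 260, 256 and 260 CPM in Bcl11b+/N440K and 299, 284 and 314 CPM in Bcl11b+/+ libraries. Igf1r summed to 428, 411 and 431 CPM in Bcl11b+/N440K and 538, 511 and 575 CPM in Bcl11b+/+ libraries. In both, Bcl11b+/+ replicate 2 was the lowest and replicate 3 the highest of its genotype, an order that choosing Igf1r by its likeness over these libraries favours.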

How the data were processed

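Thymocytes were fixed, and sonicated chromatin was precipitated with a rabbit antibody to Bcl11b, per the labels' protocols. Tools in the submitters' processing notes are edgeR 3.38.2, MACS2, bedtools, SAMtools 1.9, Bowtie2 2.3.5 and fastp 0.20.0, with build mm10. The sources used here do not say how peaks were called. Per interval, the authors deposited raw read counts (93708 intervals) and CPM values (63098 of them). Those CPM values came back as whole reads in 100% of cases (tolerance 0.01), all equal to the deposited counts, and the same test on them made 720 calls. Total counts in intervals were 1787899 to 2661343 per library. The members' spread between libraries averaged 1.01 (Bcl11b+/N440K) and 1.41 (Bcl11b+/+) times the counting variance.

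The whole table was filtered with filterByExpr and TMM-scaled. The test was edgeR's quasi-likelihood model with genotype as the only term, with Benjamini-Hochberg adjustment over all tested intervals and a threshold of 0.05. The fit was tested on simulated data. SE is the log2 fold change over the square root of F. Library pairs differed by a chi-square of 1.24 to 1.42 per degree of freedom within genotypes, so none was a copy. Sums per library were compared by exact permutation tests. Alternatives were other tools, scalings, filters, thresholds and windows, a replicate block and leaving out each library. Named intervals are the called, the 5 with the smallest p, the 10 strongest in Bcl11b+/+, the strongest of each zone and all within 5 kb of the gene body. Members and lists were chosen with earlier results of these data known. Genes came from RefSeq (GRCm38.p6), 21920 for assignment. Software was Python 3.11.15 with matplotlib 3.10.9, scipy 1.17.1, numpy 2.4.6 and pandas 2.3.3, and R 4.3.3 with edgeR 4.0.16, limma 3.58.1 and DESeq2 1.42.0.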

Additional observations from a re-analysis of the deposited data

How the results depend on the processing

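Read numbers were low at most members and 3 libraries a side limit every exact test to p = 0.1, so small differences were not detectable. The 1 call in the window became 0 at an adjusted p of 0.01, with DESeq2, limma voom and loess offsets, 0 to 1 when a library was left out, and 2 over intervals within 250 kb of the gene body, which reach beyond the window. Over the genome there were 720 calls, 207 at 0.01, 60 with DESeq2, 318 with limma voom and 289 to 502 without 1 library. The list of genes that GATA3 acts on had 9 calls, 1 with DESeq2, 4 with limma voom and 1 without Bcl11b, the last chosen after seeing the data. For the tools and thresholds the cause was not tested. The members' median log2 fold change ran from -0.298 (without Bcl11b+/+ replicate 2) to -0.144 (without Bcl11b+/N440K replicate 3) when a library was left out, and the window's log2 ratio of summed signal from -0.235 to -0.108. That ratio was -0.193 without the strongest pair, a setting chosen after seeing the data. The log2 ratio on the 5' side, 0.128, turned to -0.661 with counts recovered from the CPM table, which hold 1 of its 5 intervals, and ran from -0.127 (without Bcl11b+/N440K replicate 1) to 0.311 without 1 library. At the interval 283.0 kb from the start the log2 fold change was 0.017 without a low-count filter and ran from -0.125 to 0.0988 without 1 library. Such ranges also crossed 0 at 7.2 kb (-0.502 to 0.0444), and upstream at 10.9 kb (-0.328 to 0.0787) and 11.5 kb (-0.471 to 0.376). With replicate number as a block, the window had 1 call, the genome had 753, and the members' median was -0.239. Between same-numbered libraries, deviations from the genotype means had correlations of -0.00424, 0.0244 and 0.055. Between differently numbered libraries of the 2 genotypes they ran from -0.0449 to 0.0187. The numbers were not taken to pair the libraries in the main test, and these small values do not settle whether they do.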
